A study of Mus musculus with 8 samples.

Results

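The ERBB receptors and the EGF-family ligands were followed through the sorted fractions of MCa-P1362, a mouse mammary adenocarcinoma line that came from a spontaneous tumour of a Balb/c breeder. The set was chosen by gene name, with earlier results of these data known, and holds 10 of the 24421 genes in the files. It has 4 receptors (Egfr, Erbb2, Erbb3, Erbb4) and 6 ligands (Areg, Ereg, Hbegf, Tgfa, Btc, Nrg1). The line was sorted by flow cytometry on EpCAM, an epithelial adhesion protein, and RNA was sequenced in 8 libraries: 2 of coculture EpCAM+, 2 of coculture EpCAM-, 2 of monoculture EpCAM+ and 2 of monoculture EpCAM- cells. All of them had been grown in high glucose DMEM with fetal bovine serum. Per the labels, cells were frozen either at once after the sort or after regrowth and a passage, and the labels do not say which of these coculture and monoculture stand for. No genetic change or agent is named for any group, and everything here comes from a single line.

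The ERBB receptors are receptor tyrosine kinases that signal as pairs. Egfr binds EGF, amphiregulin, epiregulin, epigen, betacellulin, TGF-alpha and HB-EGF; Erbb3 and Erbb4 bind neuregulins; Erbb2 (HER2) has no known ligand and acts as the preferred partner of the others; and Erbb3, whose own kinase is weak, couples strongly to PI3 kinase. The ligands are made as membrane proteins and released by ADAM proteases. In the mammary gland amphiregulin is the EGFR ligand required for growth of the ducts at puberty, and ERBB2 is amplified in a class of human breast cancers.

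The 250 bases before the annotated start of Areg, Tgfa and Btc are shown because these ligands were higher in EpCAM+ than in EpCAM- cells. Areg also had the largest log2 fold change of FPKM + 1 between the fractions of the members tested. That order depends on the 1 added to FPKM. By ratio of mean FPKM, Erbb3 was ahead in coculture (698, Areg 120). In monoculture Ereg, which was higher in EpCAM-, was ahead (2183, Areg 527). RefSeq windows of GRCm38.p6 were read for 6 of the 10 genes (Egfr, Erbb2, Erbb4, Areg, Tgfa and Btc). Each sequence below runs 5′ to 3′ on the strand of its gene and ends at the base before the start, and capitals mark matches to the cyclic AMP response element TGACGTCA, the AP-1 site TGANTCA, the GC box GGGCGG or the TATA box TATAAA on either strand.
Areg (chr5:91139349-91139598, plus strand): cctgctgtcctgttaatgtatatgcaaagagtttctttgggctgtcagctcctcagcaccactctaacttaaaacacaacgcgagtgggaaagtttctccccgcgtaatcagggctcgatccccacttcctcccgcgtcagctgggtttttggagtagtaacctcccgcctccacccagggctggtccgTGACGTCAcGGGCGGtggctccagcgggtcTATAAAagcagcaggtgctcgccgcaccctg
Tgfa (chr6:86194972-86195221, plus strand): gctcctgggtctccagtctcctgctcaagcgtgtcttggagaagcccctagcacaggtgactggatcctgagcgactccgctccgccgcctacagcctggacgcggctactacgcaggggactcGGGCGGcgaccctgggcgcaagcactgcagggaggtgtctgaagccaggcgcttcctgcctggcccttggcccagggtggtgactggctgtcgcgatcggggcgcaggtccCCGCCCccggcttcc
Btc (chr5:91402995-91403244, minus strand): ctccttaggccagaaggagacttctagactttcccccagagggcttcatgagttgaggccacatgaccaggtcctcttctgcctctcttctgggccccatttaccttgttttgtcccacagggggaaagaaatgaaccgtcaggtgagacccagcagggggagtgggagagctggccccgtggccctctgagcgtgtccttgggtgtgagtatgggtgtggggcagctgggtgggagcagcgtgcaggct

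The Areg window held a cyclic AMP response element that begins 61 bases before the start, a GC box at 52 and a TATA box at 31, which do not overlap. The Tgfa window held a GC box at 126 and another at 15, and Btc held none of the 4 motifs. Of the other windows, that of Egfr held a GC box at 9, and those of Erbb2, cut to 236 bases where the gene annotation begins, and Erbb4 held none. Among all 32851 windows of this length, 1.55% held the cyclic AMP response element, 6.75% the AP-1 site, 32.7% the GC box and 12.4% the TATA box. GC content was 57.2% for Areg, 69.2% for Tgfa and 59.6% for Btc, beside a median of 52.4% for all windows. These are letters of the reference genome, and a match does not show that a factor binds there.

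The values are FPKM, fragments per length of transcript and depth of library, so levels may be set side by side between genes. Each library's FPKM added up to 387489 to 414612, with 10634 to 11119 genes at 1 FPKM or more. Read depth is unknown, so no limit of detection is given for a value near 0. Whether the 2 libraries of a group came from separate cultures is not stated in the labels, so p-values reflect the spread among these libraries alone, and that spread may be technical. Epithelial markers (14 genes) summed to between 10872 and 10977 FPKM in coculture EpCAM+ against 34.9 to 35.5 in coculture EpCAM-, and to between 10035 and 10134 against 19.9 to 21.1 in monoculture. Mesenchymal markers (14 genes) summed to between 221 and 222 in coculture EpCAM+ against 12932 to 12991 in coculture EpCAM-, and to between 19.98 and 20.1 against 13886 to 13936 in monoculture. Thus the markers of the EpCAM- cells stood in coculture EpCAM+ at a median of 1.69% and 1.71% of their EpCAM- level, and in monoculture EpCAM+ at 0.127% and 0.139%; epithelial markers stood in EpCAM- at 0.17% to 0.269% of their EpCAM+ level. Leukocyte markers (7 in the files) summed to at most 1.43 FPKM in any library, endothelial markers (6) to at most 1.27 and adipocyte markers (5) to at most 2.57. Cd3e and Adgre1 were at 0 in all libraries, as were Lep and Cidec.

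The receptors Egfr, Erbb2 and Erbb3 were transcribed in the line. Egfr and Erbb2 were present in both fractions and higher in EpCAM+, while Erbb3 was found almost wholly in EpCAM+ cells and Erbb4 was listed at 0 in all 8 libraries. Changes below are log2 fold changes of FPKM + 1 with their standard error, which understate the change of low genes, and adjusted p-values are those of limma over the 12012 genes tested. Because these are bulk samples, fewer cells that carry a transcript and less transcript per cell cannot be told apart.

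Egfr (chromosome 11, 16752203 to 16918158), the receptor of most of the ligands here, read 26.4 in both coculture EpCAM+ libraries and 18.3 and 17.9 FPKM in the coculture EpCAM- libraries. In monoculture it read 35.2 and 35.8 in EpCAM+ and 8.26 and 8.45 in EpCAM-. The fractions did not overlap in either culture, and the gap was wider in monoculture. The log2 fold change of EpCAM+ against EpCAM- was 0.52 (SE 0.028, adjusted p = 5.17e-07) in coculture and 1.96 (SE 0.028, adjusted p = 1.53e-10) in monoculture. The coculture difference stood beside a median of 0.50 for the 970 tested genes of chromosome 11 and a median of 0.26 for all genes; scaling by the median of ratios brought it to 0.25 (adjusted p = 7.76e-05).

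Erbb2 (chromosome 11, 98412470 to 98437716) read 15.1 and 15.8 in coculture EpCAM+, 8.44 and 8.72 in coculture EpCAM-, 14.3 in both monoculture EpCAM+ libraries, and 9.58 and 9.83 in monoculture EpCAM-. Every EpCAM+ library was above every EpCAM- library, by a ratio of mean FPKM of 1.80 in coculture and 1.48 in monoculture. These differences, 0.78 and 0.52 on the log2 scale, were called (adjusted p = 2.14e-07 and 2.59e-06), and the monoculture one lay close to the chromosome 11 median of 0.47. Scaling by the median of ratios left 0.52 and 0.29.

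Erbb3 (chromosome 10, 128567523 to 128589652), the neuregulin receptor with the weak kinase, read 12.1 and 12.5 in coculture EpCAM+ and 6.77 and 6.42 in monoculture EpCAM+. In the EpCAM- libraries it was between 0.00737 and 0.0417 FPKM. With the share of epithelial markers subtracted, 3 of the 4 EpCAM- libraries were at 0 and the remaining library was at 0.0292. The log2 fold change was 3.71 (SE 0.049, adjusted p = 1.13e-10) in coculture and 2.89 (SE 0.049, adjusted p = 3.98e-10) in monoculture, beside medians of 0.13 and 0.085 for chromosome 10. Erbb4 (chromosome 1, 68032186 to 69108059), the second neuregulin receptor, had no value above 0, so Erbb3 was the only neuregulin-binding receptor gene with a value above 0 in these libraries.

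**Figure D1:**
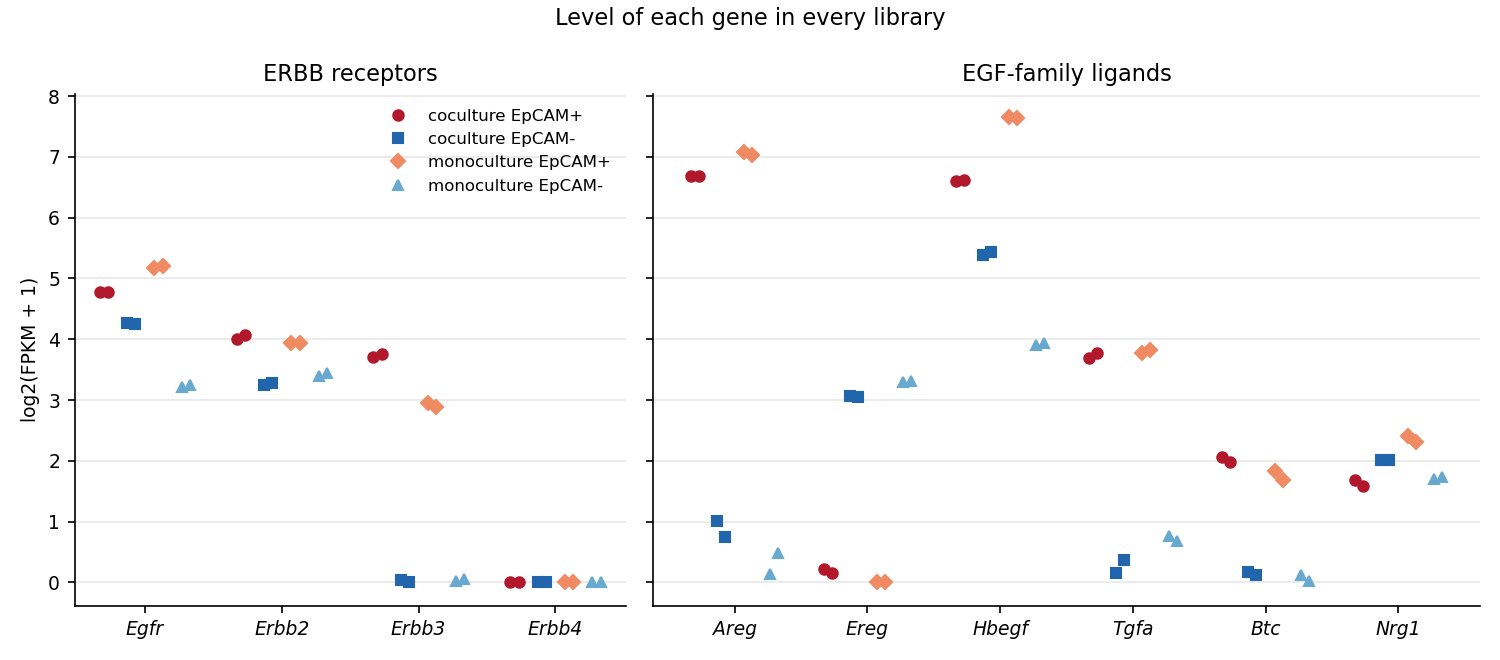
Level of the 4 receptors and 6 ligands in each of the 8 libraries, as log2(FPKM + 1) on the vertical axis, with a point per library and a colour and symbol per group. Erbb3, Areg, Tgfa and Btc stand higher in the EpCAM+ libraries and near 0 in EpCAM-, with Btc low in EpCAM+ too. Ereg does the reverse, and Egfr, Erbb2, Hbegf and Nrg1 are present in all 4 groups.

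Areg, Tgfa and Btc were transcripts of EpCAM+ cells, Ereg of EpCAM- cells, and Hbegf and Nrg1 of both. In the EpCAM+ libraries Areg and Hbegf were by far the most abundant ligands, and in the EpCAM- libraries Hbegf and Ereg.

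Areg (chromosome 5, 91139599 to 91148432), which encodes amphiregulin, read 101 and 102 FPKM in coculture EpCAM+ and 134 and 129 in monoculture EpCAM+. In EpCAM- it read 1.02 and 0.67 in coculture and 0.102 and 0.397 in monoculture. The fractions were far apart in both cultures, by 5.80 and 6.74 on the log2 scale (SE 0.118 each), with adjusted p = 1.17e-09 and 4.47e-10. With the share of epithelial markers subtracted, the EpCAM- libraries held 0.781 and 0.397 in coculture and 0 and 0.146 in monoculture.

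Tgfa (chromosome 6, 86195223 to 86275719), which encodes TGF-alpha, read 11.97 and 12.7 in coculture EpCAM+ and 12.7 and 13.1 in monoculture EpCAM+, against 0.119 and 0.286 in coculture EpCAM- and 0.69 and 0.607 in monoculture EpCAM-. The EpCAM+ libraries were high and the EpCAM- libraries low in both cultures. The log2 fold change against EpCAM- was 3.48 (SE 0.073) and 3.08 (SE 0.073), with adjusted p = 1.43e-09 and 2.70e-09. Btc (chromosome 5, 91357261 to 91402994) encodes betacellulin, a ligand of Egfr and Erbb4. It was a minor ligand at 3.17 and 2.96 in coculture EpCAM+ and 2.55 and 2.20 in monoculture EpCAM+, with no EpCAM- library above 0.127. Its log2 fold change was 1.88 in coculture and 1.68 in monoculture (adjusted p = 4.30e-08 and 7.53e-08).

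Ereg (chromosome 5, 91074622 to 91093646), which encodes epiregulin, went the other way. It read 7.41 and 7.31 in coculture EpCAM- and 8.86 and 8.97 in monoculture EpCAM-. In EpCAM+ it read 0.164 and 0.11 in coculture, and 0 and 0.00817 in monoculture. The log2 fold change of EpCAM+ against EpCAM- was -2.88 (SE 0.047, adjusted p = 3.54e-10) in coculture and -3.30 (SE 0.047, adjusted p = 1.51e-10) in monoculture. With the share of mesenchymal markers subtracted, Ereg stood at 0.0398 and 0 in the coculture EpCAM+ libraries and at 0 in those of monoculture.

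Hbegf, which encodes HB-EGF, was the ligand with the highest level in 3 of the 4 groups and ranked behind Areg in coculture EpCAM+. It read 96.0 and 97.3 in coculture EpCAM+, 40.9 and 42.1 in coculture EpCAM-, 201 and 199 in monoculture EpCAM+, and 13.9 and 14.3 in monoculture EpCAM-. The EpCAM+ libraries were higher in both cultures, 2.33-fold by mean FPKM in coculture and 14.2-fold in monoculture. The log2 fold change was 1.20 (SE 0.025, adjusted p = 1.24e-09) and 3.73 (SE 0.025, adjusted p = 3.46e-12).

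Nrg1 (chromosome 8, 31814551 to 32884029), the neuregulin gene whose isoforms the files do not separate, was low in all groups. It read 2.20 and 2.01 in coculture EpCAM+, 3.04 and 3.03 in coculture EpCAM-, 4.28 and 3.95 in monoculture EpCAM+, and 2.27 and 2.32 in monoculture EpCAM-. It was the only member whose order between the fractions differed between the cultures: EpCAM+ was lower in coculture (-0.38, SE 0.054, adjusted p = 2.28e-04) and higher in monoculture (0.63, SE 0.054, adjusted p = 8.37e-06). The interaction (the culture change of EpCAM+ minus that of EpCAM-) was 1.01 (SE 0.077, adjusted p = 1.57e-05). Thus the ligand transcript was found in both fractions, and that of its receptor Erbb3 at 6 FPKM or more in EpCAM+ and below 1 FPKM in EpCAM-.

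**Figure D2:**
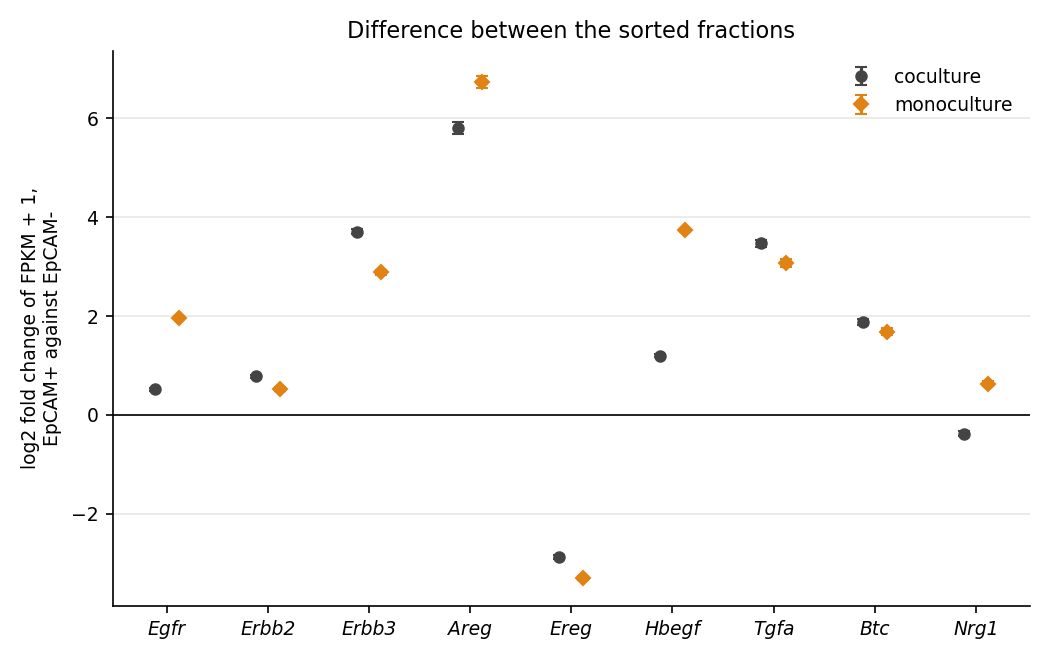
Log2 fold change of FPKM + 1 of EpCAM+ against EpCAM- for the 9 members tested, with points for coculture and monoculture and bars for the standard error from limma. Only Ereg lies below 0 in both cultures, Nrg1 lies on opposite sides of 0, and the gap widens from coculture to monoculture for Egfr (0.52 to 1.96) and Hbegf (1.20 to 3.73).

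Of the 10 members, 9 passed the filter of 1 FPKM in 2 libraries and Erbb4 did not. In coculture all 9 tested members were called, 7 higher and 2 lower in EpCAM+, where 87.2% of all tested genes were called, 59.2% higher and 28.0% lower. In monoculture 8 were higher and 1 was lower, against a background of 87.9% called, 55.4% higher and 32.4% lower. A call alone is thus near the background. At 2-fold or more, 5 members were higher and 1 lower in coculture (16.5% and 10.1% of all genes, 26.5% in either direction). In monoculture 6 were higher and 1 lower (15.5% and 12.6%, 28.1% in either direction). The members were chosen with earlier results of these data known. A count or median of members above that of all genes is thus a description and was not tested. The median log2 fold change of the members was 1.20 in coculture and 1.96 in monoculture, beside 0.26 and 0.23 for all genes. Scaling by the median of ratios moved the median of all genes by -0.25 and -0.22, and the share of higher genes among all calls fell from 67.9% to 50.5% in coculture and from 63.1% to 50.6% in monoculture (50.4% and 54.8% under quantile normalization). No member changed direction between the fractions under the 3 scalings tried.

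Added up, both ligand and receptor levels were higher in the EpCAM+ than in the EpCAM- libraries. FPKM is relative to each library, so the sums do not give the amount of transcript per cell or per fraction. The 6 ligands summed to 215.8 ± 1.30 FPKM (SD, n = 2) in coculture EpCAM+ and 53.04 ± 0.653 in coculture EpCAM-, a ratio of 4.07. In monoculture they summed to 351 ± 5.01 and 26.3 ± 0.466, a ratio of 13.4. The 4 receptors summed to 54.1 ± 0.711 and 26.7 ± 0.0878 in coculture, a ratio of 2.02, and to 56.4 ± 0.135 and 18.1 ± 0.338 in monoculture, a ratio of 3.12. The spread between libraries was small beside these gaps.

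The makeup of the sums differed as well. Areg and Hbegf gave 47% and 44.8% of the ligand sum in coculture EpCAM+ and 37.5% and 57% in monoculture EpCAM+. In EpCAM-, Hbegf gave 78.2% and Ereg 13.9% in coculture, and 53.7% and 33.9% in monoculture. Of the receptor sum, Egfr gave 48.7% and Erbb3 22.7% in coculture EpCAM+, and 62.9% and 11.7% in monoculture EpCAM+. In monoculture EpCAM-, Erbb2 at 53.7% stood ahead of Egfr at 46.2%, the only group in which Erbb2 was the highest receptor. Within each group, levels of members next to each other in rank did not overlap between libraries, except Tgfa and Btc in coculture EpCAM-.

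**Figure D3:**
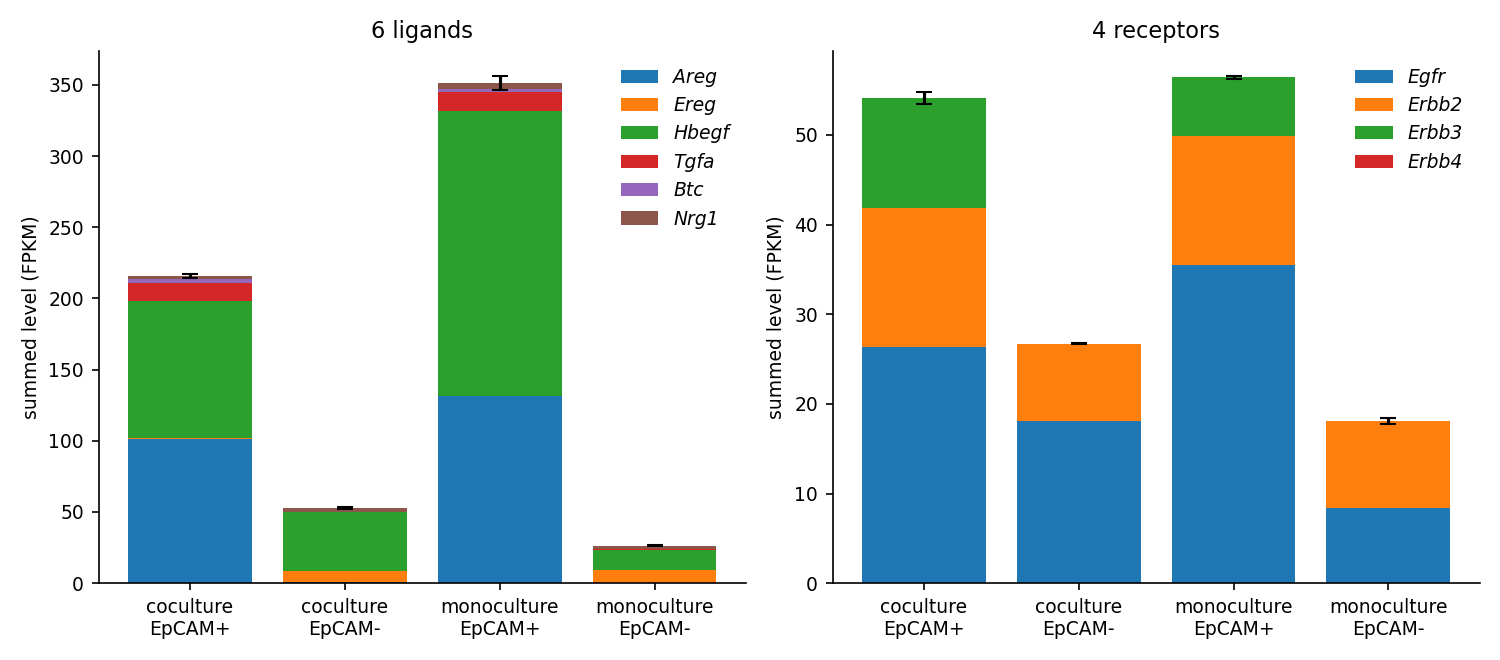
Summed FPKM of the 6 ligands (left) and the 4 receptors (right) in each group, as stacked means of 2 libraries on an axis from 0, with the SD of the sum as a bar. The ligand sum of EpCAM+ rises from 215.8 in coculture to 351 in monoculture while that of EpCAM- goes from 53.04 to 26.3, and Erbb3 is visible only in the EpCAM+ columns.

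The comparison of monoculture with coculture asks how far the same fraction differs between the culture conditions. A gene is said to rise or fall where monoculture was higher or lower than coculture. Regrowth and passage after the sort cannot be told apart from the culture itself. In EpCAM+ cells Hbegf, Nrg1, Egfr and Areg were higher in monoculture, and Erbb3, Btc and Ereg lower. Of the 9 tested members 7 were called, 4 higher and 3 lower, where 51.4% of all genes were called, 16.4% higher and 34.9% lower. Hbegf rose by 1.04 (SE 0.025, adjusted p = 8.34e-08), the only member past 2-fold, as were 1.94% of all genes, 0.266% higher and 1.67% lower. The share of higher genes among all calls was 32.0%, and 44.9% under scaling by the median of ratios and 53.6% under quantile normalization. Nrg1 rose by 0.72 (SE 0.054, adjusted p = 3.08e-05) and Egfr by 0.42 (SE 0.028, adjusted p = 1.78e-05). Erbb3 fell by 0.81 (SE 0.049, adjusted p = 1.05e-05), so that within the same fraction Egfr and Erbb3 went opposite ways.

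The other 3 calls in EpCAM+ lay near the threshold. Areg rose by 0.37 (SE 0.118, adjusted p = 0.0309), and although its EpCAM+ libraries did not overlap, the call was lost without monoculture EpCAM+ replicate 1 or 2 (adjusted p = 0.121 and 0.0846) or coculture EpCAM+ replicate 1 or 2 (0.104 and 0.101), while the fold change stayed between 0.35 and 0.40. It was also lost with a pseudocount of 0.1 or 0.5 (adjusted p = 0.431 and 0.122) and with no filter (0.0747). Btc fell by 0.27 (adjusted p = 0.0134), lost without monoculture EpCAM+ replicate 2 (0.0729), without coculture EpCAM+ replicate 1 (0.0756) and under quantile normalization (0.271). Ereg fell by 0.18 (adjusted p = 0.0152), and with the share of mesenchymal markers subtracted the value was -0.028 (adjusted p = 0.647). The Ereg call was also lost without monoculture EpCAM+ replicate 1 (0.0601) and without coculture EpCAM+ replicate 1 (0.0861). Without coculture EpCAM+ replicate 1 only 4 members were called. Erbb2 (-0.10, adjusted p = 0.0511) and Tgfa (0.058, adjusted p = 0.541) did not pass.

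In EpCAM- cells the order was largely the reverse. Hbegf fell by 1.49 (SE 0.025, adjusted p = 5.60e-09) and Egfr by 1.03 (SE 0.028, adjusted p = 6.22e-08), the 2 members past 2-fold, as were 4.52% of all genes, 2.56% higher and 1.96% lower. Areg fell by 0.57 (adjusted p = 0.00363) and Nrg1 by 0.29 (adjusted p = 0.00199). Tgfa rose by 0.46 (adjusted p = 8.86e-04), Ereg by 0.25 (adjusted p = 0.00242) and Erbb2 by 0.16 (adjusted p = 0.0061). These are 7 calls of 9, 3 higher and 4 lower, where 62.7% of all genes were called, 32.4% higher and 30.3% lower. Areg and Tgfa were at most 1.02 FPKM in these libraries, and Erbb3 (0.012, adjusted p = 0.856) and Btc (-0.071, adjusted p = 0.408) did not pass.

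Whether the difference between monoculture and coculture was unlike in the 2 fractions was tested by the interaction. Of the 9 members 8 were called, 4 in each direction, where 65.2% of all genes were called, 26.0% higher and 39.2% lower. Under quantile normalization the share of higher genes among these calls went from 39.9% to 53.4%. Hbegf had an interaction of 2.53 (SE 0.035, adjusted p = 3.89e-09), Egfr of 1.45 (SE 0.04, adjusted p = 1.27e-07) and Nrg1 of 1.01, all 3 past 2-fold, as were 8.09% of all genes, 2.43% higher and 5.66% lower. For each of these 3 genes the EpCAM+ libraries were higher and the EpCAM- libraries lower in monoculture, with no overlap. Areg had 0.94 (adjusted p = 0.0016), Erbb3 -0.82 (adjusted p = 2.99e-05), Ereg -0.43 (adjusted p = 8.51e-04), Tgfa -0.40 (adjusted p = 0.0102) and Erbb2 -0.26 (adjusted p = 0.00292). In the EpCAM- libraries Areg read at most 1.02 FPKM, Tgfa 0.69 and Erbb3 0.0417, and in EpCAM+ Ereg read at most 0.164. The interactions of these genes thus rest partly on values near 0. In EpCAM+ the culture change of Tgfa did not pass (0.058), and the limma call of Areg lay near the threshold (adjusted p = 0.0309). The Erbb2 call was lost under quantile normalization (-0.13, adjusted p = 0.0751). The 4 comparisons share libraries, so their values are given side by side and are not independent.

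**Figure D4:**
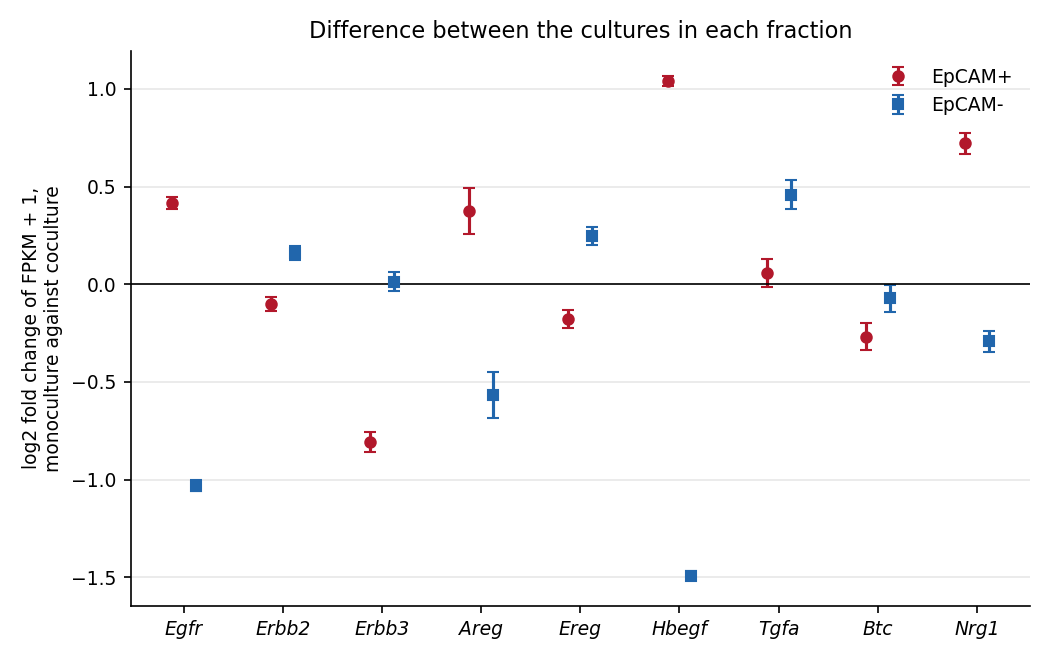
Log2 fold change of FPKM + 1 of monoculture against coculture for the 9 members tested, in EpCAM+ and EpCAM- cells, with bars for the standard error from limma. Hbegf (1.04 and -1.49), Egfr (0.42 and -1.03), Areg (0.37 and -0.57) and Nrg1 (0.72 and -0.29) lie on opposite sides of 0 in the 2 fractions.

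Ereg, Areg and Btc lie in a cluster with a further ligand gene on chromosome 5, and the genes of the cluster did not go the same way. In the mm10 annotation Epgn (91027464 to 91035215), which encodes epigen, is followed after 39.4 kb by Ereg, after another 46 kb by Areg and after 209 kb by Btc, which is on the opposite strand. Among genes of the files that matched a single annotated gene, none other lay between these 4 except the lincRNA Gm19619, between Areg and Btc. Epgn read 7.14 and 8.47 FPKM in coculture EpCAM+, 5.83 and 5.91 in monoculture EpCAM+, and at most 0.128 in any EpCAM- library. Its log2 fold changes were 3.01 in coculture and 2.66 in monoculture (SE 0.076 each), with adjusted p = 4.27e-09 and 8.26e-09. Epgn, Areg and Btc were thus transcripts of EpCAM+ cells, while Ereg, which lies between Epgn and Areg, was a transcript of EpCAM- cells in both cultures. The median of the 735 tested genes of chromosome 5 was 0.15 in coculture and 0.17 in monoculture. Of the other ligand genes outside the 10, Egf, the founding member, stayed between 0.079 and 0.136 FPKM, Nrg4 between 0.151 and 0.379, and Nrg2 reached at most 0.26, in monoculture EpCAM-. Nrg3 was listed at 0 throughout.

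**Figure D5:**
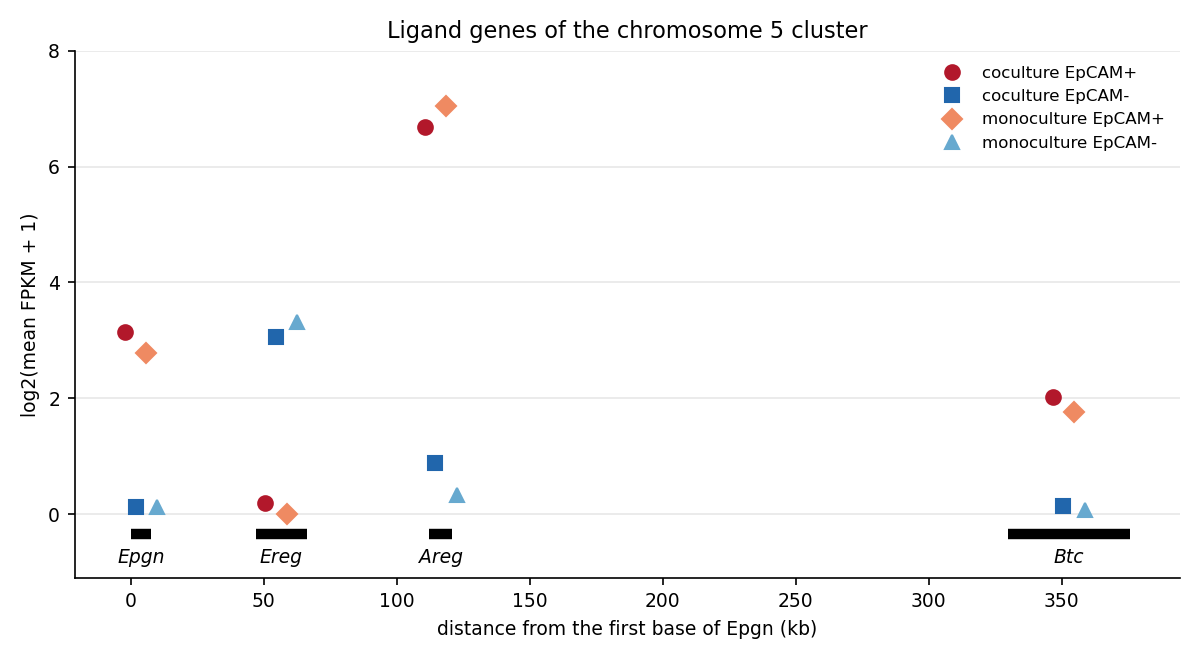
Mean level of Epgn, Ereg, Areg and Btc in the 4 groups, as log2(mean FPKM + 1), against distance from the first base of Epgn in kb, with gene bodies as black bars and the points of a gene set side by side for legibility. Ereg is high in the EpCAM- groups between 2 genes that are high in the EpCAM+ groups.

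Genes around Erbb2 on chromosome 11 were also higher in EpCAM+ cells. Of 11 neighbours, 7 were tested, and all 7 were higher in EpCAM+ in both cultures, 3 of them at 2-fold or more, with a median of 0.94 in coculture and 0.92 in monoculture. Of all genes 59.2% and 55.4% were higher in the 2 cultures, 16.5% and 15.5% at 2-fold or more, and the medians of chromosome 11 were 0.50 and 0.47. Ppp1r1b, a phosphatase inhibitor, read 39.1 ± 0.52 against 0.0665 ± 0.0191 in coculture and 16.3 ± 0.541 against 0.0505 ± 0.0125 in monoculture. Grb7, an adaptor that binds ERBB receptors and lies close to Erbb2, read 16.3 ± 0.80 against 0.0184 ± 0.026 and 10.96 ± 0.0999 against 0.0146 ± 0.0206. Stard3, a cholesterol-binding protein, read 28.7 ± 0.513 against 7.26 ± 0.209 in coculture (1.84) and 22.8 ± 0.509 against 9.35 ± 0.781 in monoculture (1.20). The other changes, in coculture and monoculture, were 0.94 and 0.34 for Mien1, 0.68 and 0.37 for Pgap3, 0.66 and 0.92 for Cdk12, and 0.52 and 0.82 for Med1, beside 0.78 and 0.52 for Erbb2. Neurod2, Tcap, Pnmt and Ikzf3 stayed at or below 0.237 FPKM. The annotated ends of Erbb2 and Mien1 overlap by a few bases on opposite strands, and whether counting used strand is not given in the sources used here. DNA copy number was not analysed here.

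Genes of ligand shedding and its control were split between the fractions. Of 10 such genes, which include the inhibitor Timp3 as well as proteases, 7 were higher and 3 lower in EpCAM+ in coculture. In monoculture 4 were higher and 6 lower. These counts do not measure the release of ligand. Of all genes 59.2% were higher and 28.0% lower in coculture, and 55.4% higher and 32.4% lower in monoculture. Rhbdf2, an inactive rhomboid that brings ADAM17 to the surface, was higher in EpCAM+ at 8.69 ± 0.113 against 0.269 ± 0.00351 in coculture and 8.05 ± 0.298 against 0.124 ± 0.0137 in monoculture. Adam19, a metalloprotease that can cleave neuregulin, was lower in EpCAM+, at 0.802 ± 0.0294 against 48.8 ± 0.126 in coculture and 0.0329 ± 0.00404 against 31.0 ± 0.613 in monoculture. Timp3, an inhibitor of ADAM17, was 175 ± 0.804 in coculture EpCAM+ and 9.56 ± 0.41 in coculture EpCAM-, and rose in EpCAM- to 70.4 ± 1.99 in monoculture (2.76, SE 0.031, adjusted p = 1.17e-09). Adam9 was lower in EpCAM+ (-0.60 in coculture and -1.72 in monoculture) and Adam12 higher (0.73 and 1.62). Adam17 itself was higher in EpCAM+ in coculture (0.65, SE 0.042, adjusted p = 1.43e-06) and slightly lower in monoculture (-0.13, SE 0.042, adjusted p = 0.018). Scaling by the median of ratios gave 6 higher and 4 lower of the list in coculture, and 4 higher and 6 lower in monoculture.

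Adaptors and kinases below the receptors went both ways. Of 24 genes, 12 were higher and 6 lower in coculture (median 0.21) and 13 higher and 7 lower in monoculture (median 0.11). All genes stood at 59.2% higher and 28.0% lower in coculture and 55.4% and 32.4% in monoculture, so the share of higher adaptors was no larger than that of all genes. The median of ratios turned these splits to 9 higher and 11 lower and 10 higher and 13 lower. Gab1, a docking protein, was higher in EpCAM+ at 1.94 and 1.10, and Pik3cb, a catalytic subunit of PI3 kinase, at 1.08 and 1.62. Src was also higher in EpCAM+ (0.60 and 1.33), while Map2k1, the kinase MEK1, was lower (-0.996 and -0.56).

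Inhibitors of the receptors and of the pathway went both ways. Of 19 genes, 6 were higher and 7 lower in coculture, and 10 higher and 6 lower in monoculture, beside 59.2% higher and 28.0% lower of all genes in coculture and 55.4% and 32.4% in monoculture. The median of ratios gave 4 and 14, and 6 and 7. Cblc, an epithelial ubiquitin ligase of the Cbl family, read 11.3 ± 0.168 in coculture EpCAM+ and was listed at 0 in both coculture EpCAM- libraries, and read 7.74 ± 0.342 against 0.0151 ± 0.0214 in monoculture. Sh3kbp1 was lower in EpCAM+, at 14.4 ± 0.274 against 50.9 ± 0.374 in coculture (-1.75) and 17.5 ± 0.12 against 28.0 ± 0.845 in monoculture. Lrig3 was lower in EpCAM+ at -1.52 and -2.06. Its relative Lrig1, which promotes breakdown of the receptors, was higher in EpCAM+ (1.42 and 1.60), as was Ptprj, a phosphatase that acts on Egfr (1.5 and 0.94). From coculture to monoculture in EpCAM+, 7 of the 19 were higher and 4 lower, where 16.4% of all genes were higher and 34.9% lower: the feedback inhibitors Spry1 (0.65), Spry4 (0.55) and Errfi1 (0.37) rose and Cblc fell (-0.50). In EpCAM-, 5 were higher and 6 lower, where 32.4% of all genes were higher and 30.3% lower. The 4 largest changes there were those of Sh3kbp1 (-0.84), Errfi1 (-0.65), Cblb (-0.63) and Cbl (-0.52).

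Of 16 target genes that respond to ERK signalling, 15 were tested, and in coculture 9 were higher and 6 lower in EpCAM+ (median 0.53), near the 59.2% and 28.0% of all genes for the higher ones. At 2-fold or more 5 were higher and 2 lower in coculture, where 16.5% and 10.1% of all genes were. The 2 lower ones, named after their values were seen, were Egr1 (80.9 ± 0.789 against 185.7 ± 0.473) and Fosl1 (10.06 ± 0.255 against 21.9 ± 0.18). In monoculture 12 were higher and 3 lower (median 1.49), beside 55.4% and 32.4% of all genes. At 2-fold or more 9 were higher and 2 lower in monoculture, where 15.5% and 12.6% of all genes were; the 2 lower ones, named after their values were seen, were Egr1 (-1.35) and Emp1 (-1.41). Dusp6, an ERK phosphatase, read 59.5 ± 0.353 in EpCAM+ against 9.16 ± 0.593 in coculture and 72.0 ± 1.82 against 7.76 ± 0.163 in monoculture, log2 fold changes of 2.57 and 3.06. Epha2 (2.92 and 2.89), Dusp4 (2.10 and 2.31) and the cyclin gene Ccnd1 (1.95 and 1.87) were also higher in EpCAM+ in both cultures. From coculture to monoculture the list had 9 higher and 4 lower in EpCAM+ (median 0.31) and 3 higher and 12 lower in EpCAM- (median -0.22), beside medians of -0.064 and 0.0016 for all genes. Of all genes 16.4% were higher and 34.9% lower in EpCAM+, and 32.4% higher and 30.3% lower in EpCAM-. Dusp5, another ERK phosphatase, rose in EpCAM+ from 16.3 ± 0.479 to 38.7 ± 0.728 (1.20, SE 0.052, adjusted p = 1.75e-06) and fell in EpCAM- from 26.9 ± 0.597 to 11.2 ± 0.954 (-1.19, SE 0.052, adjusted p = 7.25e-07). Fosl1 (1.06) and Plaur (0.98) rose and Fos (-1.01) fell in EpCAM+, and Etv4 (-0.98) and Myc (-0.85) fell while Emp1 (0.85) rose in EpCAM-. The counts of 12 lower in EpCAM- and 9 higher in EpCAM+ were the same or 1 more under each of the 3 scalings.

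Across the 8 libraries, the 2 genes with the highest correlation of log2(FPKM + 1) with each member were as follows. Erbb3 was followed by Ppp1r1b (Pearson r = 0.9998) and St8sia6 (r = 0.9998), and Ereg by Slc41a2 (r = 0.9999) and Copg1 (r = 0.9999). Erbb2 was followed by Akr7a5 (r = 0.9989) and Iqgap3 (r = 0.9987), Egfr by Snx5 (r = 0.998) and Tsr1 (r = 0.998), and Hbegf by Hyou1 (r = 0.9995) and Wdr77 (r = 0.9994). Areg was followed by Rbm8a (r = 0.9997) and Zmiz2 (r = 0.9996), Tgfa by Hes6 (r = 0.9996) and Scx (r = 0.9994), and Btc by Clec2f (r = 0.9993) and Thnsl1 (r = 0.9989). The 8 libraries form 4 groups, so such values are common: 754 genes reached r = 0.99 with Areg, 617 with Erbb3 and 93 with Egfr. Nrg1 had only Rap2a (r = 0.992) and Lrrc8c (r = 0.992) at that level. Pearson r does not measure the size of a change. Rbm8a read a mean of 39.1 in coculture EpCAM+ and 20.4 in coculture EpCAM-, where Areg read 101.5 and 0.846. Ppp1r1b, at 39.1 and 0.0665, was nearer to Erbb3, at 12.3 and 0.0176.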

How the data were processed

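Total RNA of 8 libraries was sequenced as paired ends, per the labels. HISAT2, HTSeq, edgeR, SAMtools, FastQC and cutadapt appear in the submitters' processing notes with no version, and the build is mm10. Each library has a deposited file of FPKM by gene symbol, as the authors made it; which program wrote it, and whether libraries were scaled to each other, is not given in the sources used here. Of the gene names, 23334 matched a single gene of GENCODE M21, which gave positions.

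The 12012 genes that reached 1 FPKM in 2 or more libraries were fitted on log2(FPKM + 1) by limma 3.58.1 (R 4.3.3), with a mean for each group, 4 residual degrees of freedom and eBayes with trend. The smallest exact p for 2 libraries against 2 is 0.333. P-values are two-sided, adjusted by Benjamini-Hochberg over all genes tested, and called at 0.05. The fit was run on simulated data in which few genes changed and the spread was set small. Those runs check the code and cannot vouch for p-values in these libraries, where most genes were called between the fractions. The share of the other fraction is the median ratio over its markers of at least 100 FPKM.

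The members and lists were chosen with earlier results of these data known. All members are named, and from each list up to 4 called genes with at least 5 FPKM in the higher group, no overlap between libraries and the largest changes; for each member tested, the 2 genes of highest correlation with at least 5 FPKM in some group, leaving out Gm and Rik names. All other EGF-family ligands and Erbb2 neighbours could be named. A list gene picked in any comparison could also be given in the others, as Adam17 was between the fractions. Not every picked gene is printed, and Egr1 was named outside this rule. The alternatives changed the pseudocount (0.1, 0.5), the filter (none, 5 FPKM) or the scaling (constant sum, median of ratios, quantile), or used eBayes without trend, a replicate block, only the 4 libraries compared, libraries with each left out in turn, or values from which the other fraction's share had been subtracted. Sums with a library left out were added after the data were seen. Figures used matplotlib 3.10.9 and tables Python 3.11.15 with pandas 2.3.3.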

Additional observations from a re-analysis of the deposited data

Results flagged for a closer look

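The change from coculture to monoculture differed between EpCAM+ and EpCAM- by the interaction test in limma for 8 members. On the log2 scale the difference was 2.53 for Hbegf, 1.45 for Egfr, 1.01 for Nrg1, 0.94 for Areg, -0.26 for Erbb2, -0.40 for Tgfa, -0.43 for Ereg and -0.82 for Erbb3. The background is high, since 65.2% of all genes passed the same test. Areg, Tgfa and Erbb3 read at most 1.02 FPKM in any EpCAM- library and Ereg at most 0.164 in any EpCAM+ library, so these interactions rest partly on values near 0. The Erbb2 value was -0.13 (adjusted p = 0.0751) under quantile normalization. The Ereg value was -0.27 (adjusted p = 0.00663) after subtraction of the other fraction's share.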

How the results depend on the processing

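Of 836 values of a member under an alternative, 813 kept their direction and their side of the threshold, among them all 338 for EpCAM+ against EpCAM-; 16 lost the call, 3 gained it and 4 changed sign, and in these the cause was not tested. The sign changes were all of values that were not called: Erbb2 in EpCAM+ between cultures under quantile normalization (0.0018), Erbb3 in EpCAM- between cultures with a library left out (-0.0097 to 0.034; negative without replicate 2 of monoculture EpCAM-, or of coculture EpCAM- at -0.0024), and the Btc interaction with a pseudocount of 0.1 (0.10). With a filter of 5 FPKM, Btc and Nrg1 were not tested. A pseudocount of 0.1 raised the genes called at 2-fold or more between cultures to 562 from 233 in EpCAM+, to 910 from 543 in EpCAM- and to 1613 from 972 for the interaction, since it widens changes of low genes. Members called between cultures in EpCAM+ ranged from 4 to 7 with a library left out.

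Summed ligands, scaled to a constant sum and by the median of ratios, were 209.7 and 193.1 in coculture EpCAM+, 55.04 and 57.6 in coculture EpCAM-, 342 and 325 in monoculture EpCAM+, and 26.8 and 28.9 in monoculture EpCAM-. Summed receptors were 52.6 and 48.4, 27.7 and 29.0, 54.9 and 52.3, and 18.5 and 19.9. After subtraction of the other fraction's share, ligands in monoculture EpCAM- were 25.7 and receptors in coculture EpCAM- 26.6.

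The replicate block, with numbers that share only a label (deviations of same-numbered libraries correlated at -0.073 to 0.041), called 10437, 10512, 5998, 7448 and 7720 genes in the 5 comparisons and added Erbb2 in EpCAM+ between cultures (adjusted p = 0.0493). With FPKM only, depth and so the precision of values near 0 are unknown.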
